A study of Mus musculus with 8 samples.

Results

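Wdr6, Baiap3, AW551984 and Nynrin were 4 of the 18939 genes in a table of read counts from mu opioid receptor (MOR) expressing neurons of the paraventricular nucleus of the thalamus (PVT). They were selected on their normalized read counts (CPM, counts scaled to library size), which were lower in every morphine library than in every control library. The difference between morphine and control was therefore the basis of the choice, and for the 4 genes it is given here as a description without a test.

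The mice carried OPRM1cre X EGFP-L10a, a cross in which Cre made from the Oprm1 gene switches on a green fluorescent ribosomal protein in cells that express, or have expressed, the receptor. In translating ribosome affinity purification (TRAP), tagged ribosomes are pulled down with an antibody to the tag, and the RNA bound to them is sequenced. The control group drank 0.2% saccharin, and the morphine group drank saccharin with morphine up to 0.5 mg/ml, for 11 days in mice that were 8 to 12 weeks old at the start. By the labels, each group had 4 libraries, 2 male and 2 female, and each library pooled 2 dissections from mice of the same sex, which the Y-linked RNA of control replicate 5, labelled female, goes against. The dissection was gross, so MOR neurons of tissue next to the PVT may be present in each pool, and a Cre line reports on all cells that used Oprm1.

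Wdr6 encodes a WD-repeat protein that partners the methyltransferase Ftsj1 in modifying the wobble base of certain tRNAs. Baiap3 belongs to the Munc13 family of C2-domain proteins and is known for the trafficking and recycling of dense-core vesicles, which store neuropeptides. AW551984 is known by a sequence identifier, and its predicted protein has the VIT and von Willebrand factor A (VWA) domains that it shares with Vwa5a. Nynrin has an RNase-like NYN domain, as its relative Khnyn does, joined to a sequence derived from a retroviral integrase.

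All 4 genes are protein coding and lie on 3 chromosomes of the GRCm38 build. Wdr6 spans chr9:108572311-108578713 on the minus strand with 6 exons, and its transcript is 4163 bases long with 3375 coding bases. Baiap3 spans chr17:25242659-25256364 on the minus strand with 34 exons, a transcript of 4645 bases and 3450 coding bases. The gene span of AW551984 is chr9:39587396-39604774 on the minus strand, and it reaches upstream of both start sites used below. Its transcript NM_001199556 has 20 exons, 4224 bases and 2412 coding bases. Nynrin spans chr14:55854115-55874736 on the plus strand with 8 exons, a transcript of 7511 bases and 5520 coding bases.

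The promoter sequences are shown so that the start regions of 4 genes with a like difference can be compared. Each window runs from 250 bases before to 50 bases after the RefSeq start site (GRCm38.p6), 5′ to 3′ on the strand of the gene. For Wdr6 the first 102 bases of the window were left out because they lie in P4htm, the next gene upstream, which leaves chr9:108578664-108578861. The other windows are chr17:25256315-25256614 for Baiap3 and chr14:55853865-55854164 for Nynrin. For AW551984 they are chr9:39603603-39603902 and chr9:39604075-39604374, at the starts of its transcripts NM_001199556 and NM_178737. Capitals mark matches, on either strand, to any of 4 motifs, which were the GC box spelled GGGCGG, the box known by its letters CCAAT, the short CRE core spelled TGACG and the AP-1 element spelled TGANTCA.
Wdr6: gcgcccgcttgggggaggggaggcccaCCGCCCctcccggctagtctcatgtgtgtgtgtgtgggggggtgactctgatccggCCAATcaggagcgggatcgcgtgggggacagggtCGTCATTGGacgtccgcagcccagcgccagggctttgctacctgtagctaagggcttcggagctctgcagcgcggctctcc
Baiap3: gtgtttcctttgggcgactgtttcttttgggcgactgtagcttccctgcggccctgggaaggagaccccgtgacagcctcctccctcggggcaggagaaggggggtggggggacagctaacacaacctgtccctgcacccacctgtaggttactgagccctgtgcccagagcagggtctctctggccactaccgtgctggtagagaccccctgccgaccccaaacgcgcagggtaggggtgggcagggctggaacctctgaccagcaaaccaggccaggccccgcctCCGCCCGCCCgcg
AW551984, NM_001199556: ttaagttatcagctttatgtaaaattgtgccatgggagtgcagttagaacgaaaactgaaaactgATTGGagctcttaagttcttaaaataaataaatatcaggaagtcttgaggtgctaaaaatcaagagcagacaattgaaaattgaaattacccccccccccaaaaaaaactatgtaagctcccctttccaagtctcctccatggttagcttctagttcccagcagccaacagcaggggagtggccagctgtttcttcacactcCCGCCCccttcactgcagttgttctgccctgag
AW551984, NM_178737: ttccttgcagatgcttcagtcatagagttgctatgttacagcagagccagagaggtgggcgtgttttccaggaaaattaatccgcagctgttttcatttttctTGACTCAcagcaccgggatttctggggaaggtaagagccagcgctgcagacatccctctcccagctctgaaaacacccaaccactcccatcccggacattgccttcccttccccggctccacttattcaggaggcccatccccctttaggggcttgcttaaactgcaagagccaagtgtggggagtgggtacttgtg
Nynrin: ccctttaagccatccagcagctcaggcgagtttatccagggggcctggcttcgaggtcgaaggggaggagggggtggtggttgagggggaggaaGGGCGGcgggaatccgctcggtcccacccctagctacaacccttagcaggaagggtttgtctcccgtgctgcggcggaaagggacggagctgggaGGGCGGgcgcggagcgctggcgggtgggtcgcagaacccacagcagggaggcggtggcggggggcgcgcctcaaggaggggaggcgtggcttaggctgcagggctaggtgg

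Counts of motifs are for the 5 whole windows. GC content was 62% for the whole Wdr6 window, or 68.2% for the stretch printed, 66.3% for Baiap3, 43.3% and 52.7% for the starts of AW551984, and 69% for Nynrin, against a median of 52.7% over 32851 mouse promoters. A GC box was found in 4 of the 5 windows and in 35.7% of all promoters. Baiap3 had 2 overlapping matches just after the start site, and Nynrin had 2 before it. A CCAAT box, present in 37.4% of promoters, was found for Wdr6 and for the NM_001199556 start of AW551984. The short CRE core, present in 20.8% of promoters, was found for Wdr6 alone, 31 bases before the start, where its letters overlap those of a CCAAT box. The AP-1 element, present in 7.81% of promoters, was found once, at the NM_178737 start of AW551984. A full CRE (TGACGTCA), an E-box (CACGTG) and a TATA box (TATAAA) were in none of the 5 windows, and 1.79%, 7.15% and 13.6% of all promoters hold them. A match is a description of the letters and says nothing about binding.

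Summed over the 1 transcript that stood for each gene, a library held 37081346 to 43311792 counts in the control group and 31151106 to 47582947 in the morphine group. None of 14 thalamic markers was at 0 in all libraries, and their summed level was 3120 to 3999 CPM in the control group and 2519 to 3972 in the morphine group. Of these markers 12 had a log2 fold change below 0 (median -0.22), and 0 were called by edgeR and 1, Cck, which was higher, by DESeq2. Oprm1 itself was at 25.3 ± 6.92 CPM in the control group and 16.5 ± 1.95 in the morphine group (SD, n = 4). Its log2 fold change was -0.62 (SE 0.19, edgeR unadjusted *P* = 0.00649, adjusted *P* = 0.207), and the groups overlapped. Control replicate 5, labelled female, held Y-linked RNA (1206 counts of Ddx3y, where the other female libraries had at most 2), at 28.7 to 35.8% of the male mean over 4 Y-linked genes. Markers of other cells were also examined. Of 14 choroid plexus markers 13 had a log2 fold change above 0 (median 1.99), with a summed level of 36.2 to 112 CPM in the control group and 131 to 406 in the morphine group, and edgeR called 0 of them (11 higher at an unadjusted *P* under 0.05) and DESeq2 9. Of 14 telencephalic pyramidal markers 13 were above 0 (median 0.88), and their summed level was 567 to 898 CPM against 937 to 1409, and edgeR called 2 of them higher and DESeq2 6, where edgeR called 0 genes higher over all genes without morphine replicate 4 or 8. Over all genes, edgeR called 0.195%, DESeq2 called 3.11%, and 12.1% had an unadjusted *P* under 0.05.

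Wdr6 was the most abundant of the 4 genes. Its CPM, scaled with TMM factors, was 460, 327, 348 and 455 in control replicates 1, 2, 5 and 6, and 199, 195, 213 and 181 in morphine replicates 3, 4, 7 and 8. The control libraries formed a high pair (replicates 1 and 6) and a low pair (replicates 2 and 5), while the morphine libraries lay close together. The mean was 397 ± 70.1 CPM in the control group and 197 ± 13 in the morphine group (SD, n = 4), or 49.6% of the control mean. The log2 fold change from edgeR was -1.01 (SE 0.13), and the lowest control library was 1.54 times the highest morphine library. In bulk RNA of this kind, fewer cells that express a gene and less RNA per cell cannot be told apart.

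Baiap3 had the greatest log2 fold change of the 4. It was at 196, 127, 126 and 165 CPM in control replicates 1, 2, 5 and 6 and at 53.8, 63.3, 83.1 and 57.1 CPM in morphine replicates 3, 4, 7 and 8. Morphine replicate 7 came nearest to the control group and was still below all of its libraries, by a factor of 1.51 to the lowest. The group means were 153 ± 33.9 and 64.3 ± 13.1 CPM (SD, n = 4), which places the morphine group at 42% of the control mean with a log2 fold change of -1.25 (SE 0.17).

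AW551984 varied widely between control libraries and little between morphine libraries. The control values were 98.7, 62.3, 72.9 and 71.6 CPM in replicates 1, 2, 5 and 6, and the morphine values were 41.6, 40, 45.2 and 40.7 CPM in replicates 3, 4, 7 and 8. Replicate 1 was the highest control library, and all 4 control libraries were above the morphine libraries. The means of 76.4 ± 15.6 and 41.9 ± 2.33 CPM (SD, n = 4) gave a morphine level of 54.8% of control and a log2 fold change of -0.87 (SE 0.13). The fold change was -0.55 (SE 0.19) with the mean level of the choroid plexus markers as a term in the model. That mean level was itself higher in every morphine library than in every control library. The table lists 2 transcripts of this gene whose counts differed by 0 to 6 reads per library, so they could not be distinguished, and the values are those of NM_001199556.

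Nynrin had the lowest level and the smallest difference of the 4. Its control values were 43.7, 36.6, 35.6 and 40.8 CPM in replicates 1, 2, 5 and 6, and its morphine values were 25.2, 19.9, 22.8 and 26.7 CPM in replicates 3, 4, 7 and 8. The groups did not overlap, and the lowest control library was 1.33 times the highest morphine library, the narrowest gap of the 4 genes. The means were 39.2 ± 3.79 and 23.6 ± 2.97 CPM (SD, n = 4), which places the morphine group at 60.3% of control, with a log2 fold change of -0.73 (SE 0.12).

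**Figure D1:**
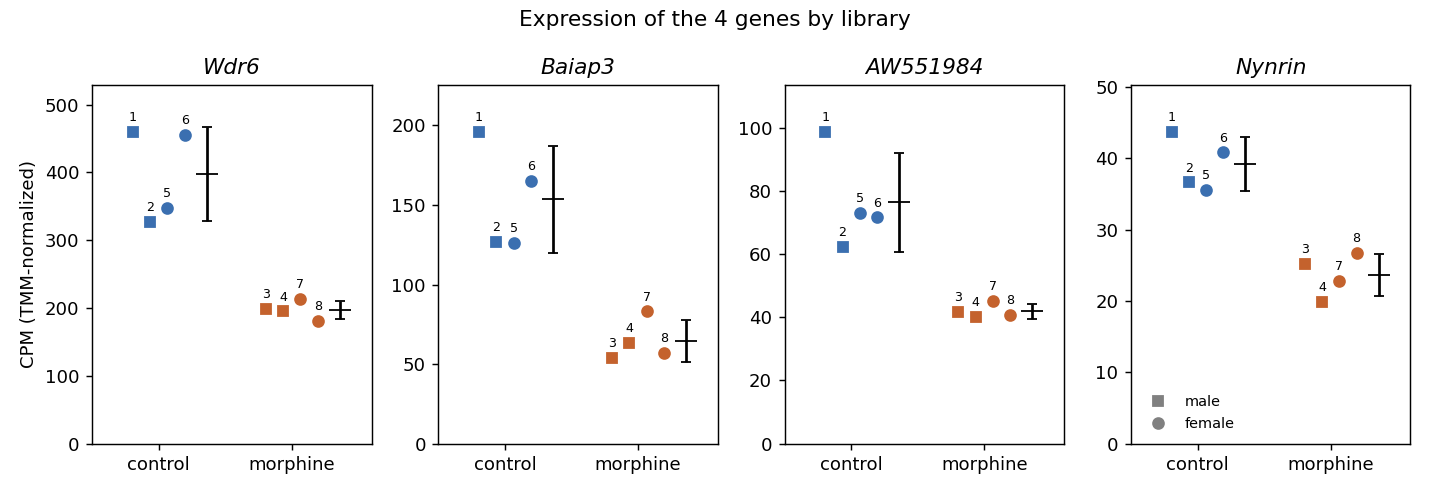
Normalized CPM of Wdr6, Baiap3, AW551984 and Nynrin in each library, with squares for male and circles for female libraries, replicate numbers above the points, and bars for the mean ± SD of 4 libraries. The morphine libraries lie below all control libraries for each gene, and control replicate 1 is the highest library in each panel.

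The 4 genes shared part of their order within the groups, which the choice did not use. Control replicate 1 was the highest control library for all 4. Replicates 2 and 5 were the lowest control libraries for Wdr6, Baiap3 and Nynrin. Morphine replicate 7 was the highest morphine library for Wdr6, Baiap3 and AW551984, whereas replicate 8 was the highest for Nynrin. This order was not particular to the 4, and the share of all genes with it was not counted. Of 2 genes given below, Rims3 also had control replicate 1 (441 CPM) and morphine replicate 7 (283 CPM) highest. Zim1 had control replicate 2 (20.1 CPM) and morphine replicate 8 (12.1 CPM) highest. The coefficient of variation was 17.6%, 22.1% and 20.4% in the control group for Wdr6, Baiap3 and AW551984, and 6.62%, 20.4% and 5.56% in the morphine group. For Nynrin it was 9.67% and 12.6%.

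Per kilobase of transcript, the order of the levels was Wdr6, Baiap3, AW551984 and Nynrin in every library of both groups. The control means were 95.5, 33, 18.1 and 5.21 CPM per kb, and the morphine means were 47.3, 13.8, 9.91 and 3.15 CPM per kb. The ranges of neighbouring genes in this order did not overlap in either group. Baiap3 and AW551984 were nearest to each other in the morphine group, where their means differed 1.4 times, as compared to 1.83 times in the control group. By this measure 94.8% of genes with a transcript length had a lower mean level than Wdr6, 81.9% than Baiap3, 73.1% than AW551984 and 52.4% than Nynrin.

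Every morphine library was below every control library for 607 genes, which was 3.21% of all genes, and above for 633 genes (3.34%). The 4 genes are among the 607 by construction. Over all genes, edgeR called 6 genes lower in the morphine group (0.0317%) and 31 higher (0.164%) at an adjusted *P* under 0.05, and nothing is read from these counts for the 4 genes, which were selected on this contrast. Without morphine replicate 4 or 8, and with the choroid plexus or hypothalamic markers as a term in the model, 0 were called in either direction, without control replicate 1 the counts were 0 lower and 1 higher, and with the telencephalic markers 1 lower and 0 higher. Without control replicate 6 there were 5 lower and 72 higher, without control replicate 2 there were 13 lower, and DESeq2 called 176 lower and 322 higher. As values without a test, other genes whose groups did not overlap included Zim1, an imprinted zinc finger gene, at 18.3 ± 1.75 CPM in the control group and 11.2 ± 1.1 in the morphine group, and Rims3, which encodes a presynaptic active zone protein, at 386 ± 40.9 and 255 ± 21.5 CPM. Peg10, an imprinted gene derived from a retrotransposon, lay outside, since its highest morphine library (166 CPM) was above its lowest control library (131 CPM).

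The 4 genes were then compared between the sexes, which the choice did not use. The log2 difference of female minus male libraries was 0.013 for Wdr6 (95% interval -0.28 to 0.30), 0.051 for Baiap3 (-0.33 to 0.43), -0.042 for AW551984 (-0.34 to 0.26) and 0.03 for Nynrin (-0.24 to 0.30). None passed the test, with an adjusted *P* of 1 for each in the edgeR fit with condition in the model, where 0.00528% of all genes were called (3.1% at an unadjusted *P* under 0.05, and 0.199% with DESeq2). The log2 difference between the female and the male change with morphine was -0.03 for Wdr6 (-0.66 to 0.60), 0.41 for Baiap3 (-0.34 to 1.16), 0.23 for AW551984 (-0.39 to 0.84) and 0.21 for Nynrin (-0.36 to 0.78). The adjusted *P* of edgeR's interaction term was again 1 for each of the 4, and 0% of all genes were called (1.72% at an unadjusted *P* under 0.05, and 0.0211% with DESeq2). Under 16 alternative settings, DESeq2 among them, the lowest adjusted *P* of the 4 genes was 0.913 for sex and 0.954 for the interaction. As a description, the log2 fold change was -0.98 in males and -1.02 in females for Wdr6, -1.43 and -1.06 for Baiap3, -0.94 and -0.75 for AW551984, and -0.84 and -0.63 for Nynrin. Without control replicate 5 the sex differences were 0.072, 0.15, -0.035 and 0.078, the interactions were -0.20, 0.24, 0.25 and 0.12, and the log2 fold changes with morphine were -1.09, -1.35, -0.91 and -0.79, for the genes in the same order.

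The genes next to the 4 on the chromosome were examined because overlapping genes can share reads. The genes of the table within 50 kb that are reported here numbered 16, with 8 around Wdr6, 4 around Baiap3, 4 around Nynrin and 0 around AW551984. None was called by edgeR over all genes, where 0.195% were, and 1 had an unadjusted *P* under 0.05, where 12.1% of all genes did. Their log2 fold changes ran from -0.71 for Mir191, with 34 counts in all, to 0.36 for Mir425, with a median of -0.057.

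The 3′ end of Wdr6 shares 383 bases, 9.2% of its transcript, with Dalrd3 on the opposite strand, a gene that also acts in tRNA methylation. Dalrd3 was at 56.7 ± 1.35 CPM in the control group and 58.3 ± 3.45 in the morphine group, which is a log2 difference of 0.039 (SE 0.083, adjusted *P* = 0.878, edgeR). P4htm, an endoplasmic reticulum prolyl hydroxylase gene, ends 149 bases upstream of Wdr6 on the same strand and had a log2 fold change of 0.13 (SE 0.21, adjusted *P* = 0.831, edgeR). Baiap3 shares 140 exonic bases, 3.01% of its transcript, with 0610007P22Rik on the opposite strand, a gene also called Tsr3, which had a log2 fold change of 0.044 (SE 0.12, adjusted *P* = 0.911, edgeR).

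Nynrin shares 4245 exonic bases, 56.5% of its transcript, with the long noncoding gene Gm26751 on the opposite strand, which is not in the table. The library kit kept the strand, but whether the counting used it is not given in the sources used here, so reads of the pair could not be told apart. Cbln3, the nearest gene of the table downstream of Nynrin, was at 0.777 ± 0.129 CPM in the control group and 0.668 ± 0.22 in the morphine group. Khnyn lies 10076 bases downstream of Nynrin and is its relative, with a NYN domain that acts on RNA. It was at 18.3, 16.2, 19.2 and 18.7 CPM in the control libraries and at 14.9, 14, 13 and 16 CPM in the morphine libraries. Khnyn was the 1 neighbour of 16 whose groups did not overlap, where 3.21% of all genes had all morphine libraries below and 3.34% above, with a log2 fold change of -0.32 (SE 0.11), and it did not pass the test over all genes (adjusted *P* = 0.281, edgeR).

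**Figure D2:**
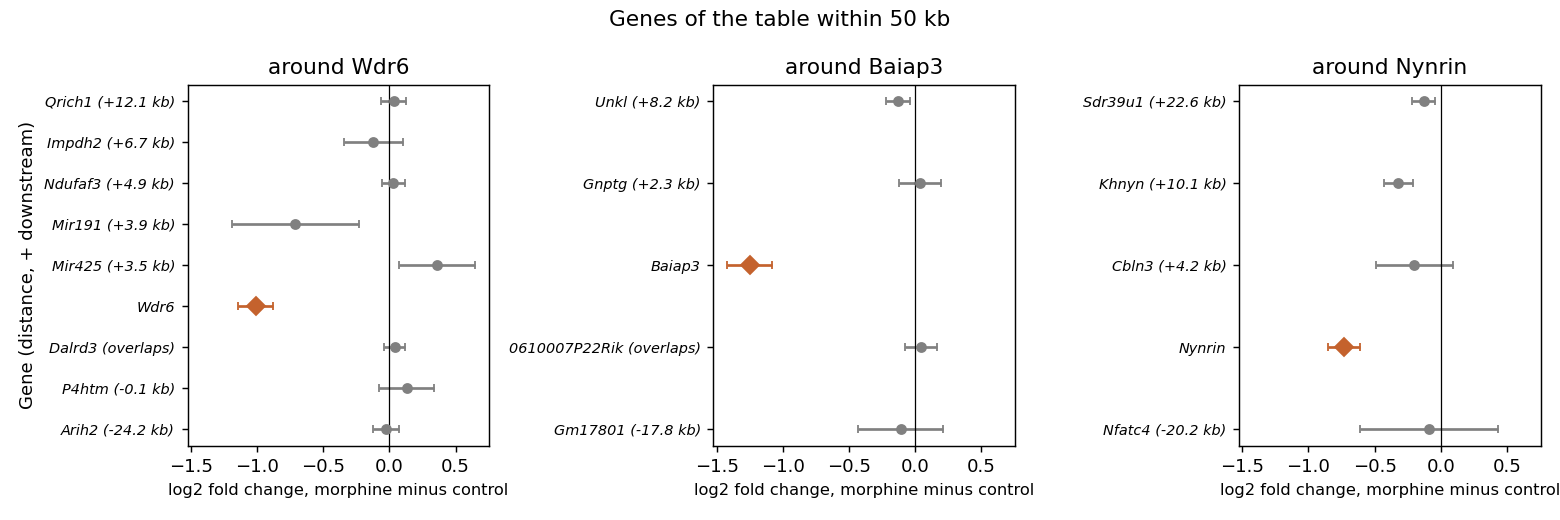
Log2 fold change of morphine minus control, with its SE, for Wdr6, Baiap3 and Nynrin (diamonds) and the reported genes of the table within 50 kb (circles), in order along the chromosome with the distance in kb. The neighbours lie between -0.71 and 0.36, and 0 of the 16 was called.

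Genes with a profile like each of the 4 were sought over the 8 libraries. The measure was the root mean square difference of log2 CPM after each gene was centred on its own mean, among genes with a mean of at least 10 CPM. It rests largely on the difference between the groups, on which the 4 genes were chosen, and it says nothing of shared function or control. The median difference to the other 9371 genes was 0.539 for Wdr6, 0.684 for Baiap3, 0.472 for AW551984 and 0.413 for Nynrin, and the closest genes are below it by construction.

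For Wdr6 the closest genes were Rcsd1 (0.142), an actin capping protein partner, Zfp92 (0.146), a zinc finger gene, and AW551984 (0.15). For Baiap3 they were Wdr6 (0.195), AW551984 (0.263) and Peg10 (0.277), given above. For AW551984 they were Zcchc12 (0.078), which encodes a transcriptional coactivator with a zinc knuckle, Zfp92 (0.127) and Ahi1 (0.134), a gene of the primary cilium. Zcchc12 was at 406, 264, 289 and 321 CPM in the control libraries and at 188, 169, 216 and 176 CPM in the morphine libraries, so that the lowest and highest library of each group were the same as for AW551984. For Nynrin they were Pnma3 (0.123), of the paraneoplastic antigen family, Tppp3 (0.132), a tubulin binding protein gene, and Zim1 (0.134). Within the 4, Wdr6 and AW551984 were closest to each other (0.15) and Baiap3 and Nynrin farthest apart (0.37).

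**Figure D3:**
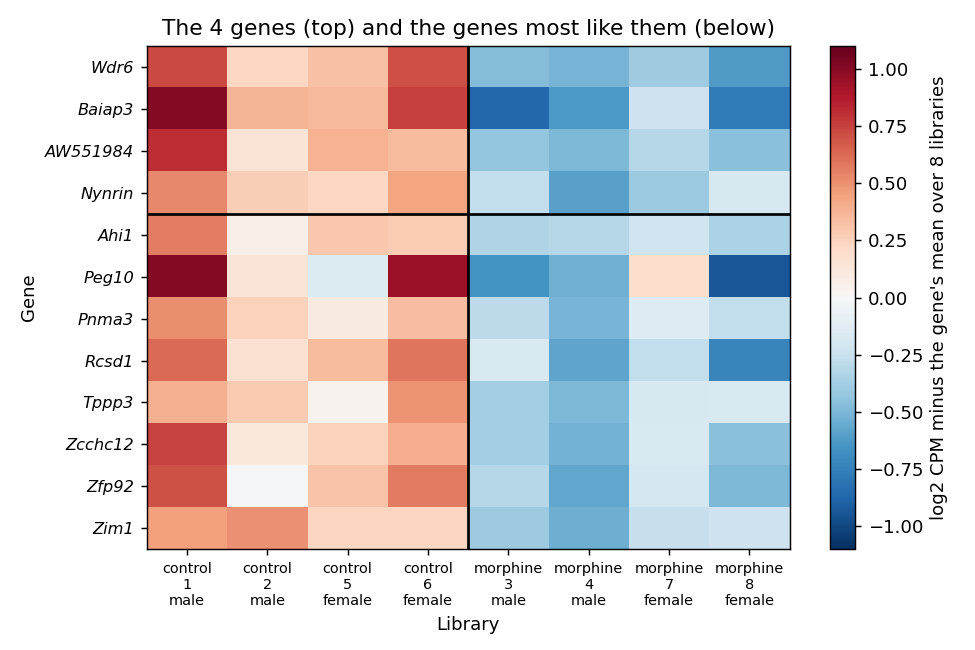
Log2 CPM of each gene minus its mean over the 8 libraries, for the 4 genes (above the line) and the genes closest to any of them (below), by library. Red is above and blue below the gene's mean; control replicates 1 and 6 are the deepest red for Wdr6 and Baiap3, and Peg10 is above its mean in morphine replicate 7, where the 4 genes are not.

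Zcchc12 and Peg10 are known to be expressed in the hypothalamus, and after they had been seen a list of 26 hypothalamic transcription factors and neuropeptides was examined. Of the 26, 21 had a log2 fold change below 0, against 48.6% of all genes, with a median of -0.89, and none passed the edgeR test. At an unadjusted *P* under 0.05, 6 were lower and 2 higher, against 12.1% of all genes in either direction, and DESeq2 called 3 (Sim1, Hmx3 and Gal, each lower), against 3.11%. Sim1, which specifies neurons of the hypothalamic paraventricular nucleus, was at 6.27 ± 1.64 CPM in the control group and 2.32 ± 0.821 in the morphine group (adjusted *P* = 0.059, edgeR). Cartpt, a neuropeptide gene, went the other way, at 9.12 ± 7.58 and 34.3 ± 28 CPM (adjusted *P* = 0.313, edgeR), and 4 more were above 0. The summed level of the list was 68 to 121 CPM in the control group and 81.8 to 98.7 in the morphine group, and Rax was at 0 in all control libraries. With the mean level of these markers as a term in the model, the log2 fold changes were -1.01 for Wdr6, -1.14 for Baiap3, -0.90 for AW551984 and -0.83 for Nynrin. With the telencephalic markers as a term they were -1.17, -1.43, -0.75 and -0.70, in the same order. With the choroid plexus markers they were -0.95, -1.04, -0.55 and -0.71. The SEs rose with each added term, for Wdr6 from 0.13 to 0.20 with the choroid plexus markers. For Baiap3 the SE went from 0.17 to 0.28 with the telencephalic markers. The mean log2 CPM of the choroid plexus markers was -0.84 to 1.54 in control and 1.64 to 2.91 in morphine libraries. That term and condition could not be cleanly separated, and a part of tissue content in the differences was not tested.

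**Figure D4:**
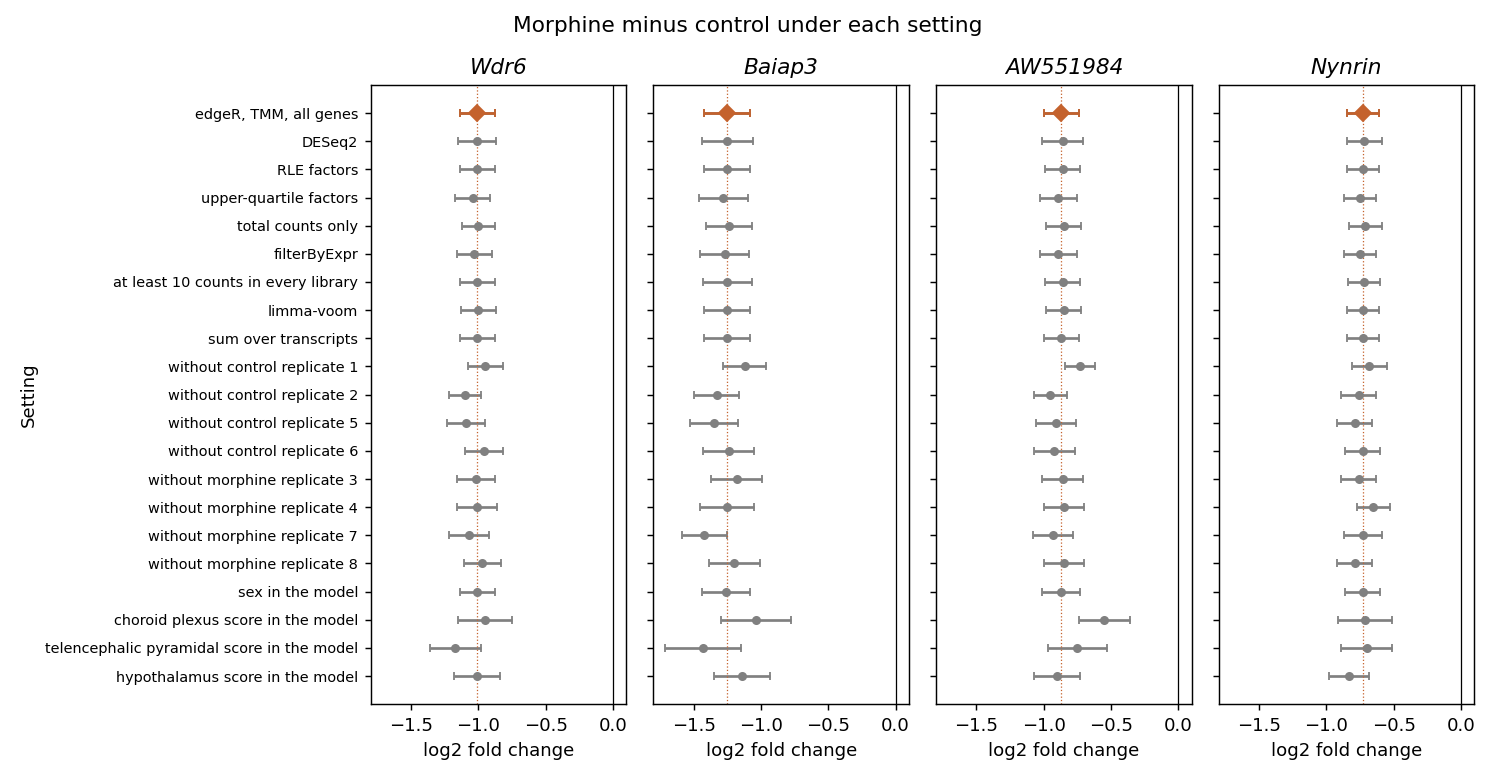
Log2 fold change of morphine minus control with its SE for each of the 4 genes (panels), as reported (diamond, dotted line) and under each other setting (circles), including leaving out each library and adding marker scores to the model. The value farthest from its diamond is that of AW551984 with the choroid plexus score, at -0.55.

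The machinery in which Wdr6 acts was examined through 71 tRNA modification genes. None was called by edgeR or by DESeq2, 2 were lower and 1 higher at an unadjusted *P* under 0.05 against 12.1% of all genes, and the median log2 fold change was -0.04 against 0.0088 over all genes. Ftsj1, the partner of Wdr6, was at 21.2 ± 3.64 CPM in the control group and 20.8 ± 1.73 in the morphine group (log2 difference -0.027, SE 0.13, adjusted *P* = 0.959, edgeR). The members with the lowest *P* were Mettl8, an m3C methyltransferase gene, at 10.9 ± 0.812 and 13.6 ± 1.83 CPM (adjusted *P* = 0.335, edgeR), and Wdr4, a subunit of the m7G methyltransferase, at 27.9 ± 1.4 and 24.1 ± 0.793 CPM (adjusted *P* = 0.381, edgeR).

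Among 39 genes of the UNC13 family and of dense-core vesicles, the setting of Baiap3, none was called by edgeR or DESeq2, 2 were higher at an unadjusted *P* under 0.05, against 12.1% of all genes in either direction, and the median log2 fold change was 0.05. Unc13a, the main neuronal vesicle priming factor, was at 20.6 CPM per kb in the control group and 22.6 in the morphine group, so Baiap3 was above it at 33 CPM per kb in the control group and below it at 13.8 in the morphine group. The log2 fold change of Unc13a was 0.13 (SE 0.16, adjusted *P* = 0.765, edgeR), and those of Unc13b and Unc13c were 0.10 and -0.075. Unc13d, with at most 0.27 CPM in a control library, was too low to compare. Chgb, a granin of the vesicle core, was at 35.3 ± 11 and 54.9 ± 19.1 CPM (adjusted *P* = 0.341, edgeR), and Cpe, the enzyme that trims neuropeptides, was at 342 ± 86.3 and 459 ± 81.6 CPM (adjusted *P* = 0.363, edgeR).

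Of 14 genes with VIT or VWA domains, the relatives of AW551984, none was called by edgeR, where 0.195% of all genes were. At an unadjusted *P* under 0.05, 2 were lower and 1, Vwa3a, was higher, against 12.1% of all genes, and DESeq2 called 1, against 3.11%. The gene called by DESeq2 was Vwa5b1, at 25.6 ± 7.24 CPM in the control group and 14.1 ± 1.18 in the morphine group (log2 difference -0.86, SE 0.19, adjusted *P* = 0.0906, edgeR), with all morphine libraries below all controls. Vwa5b2 was at 23.7 ± 3.86 and 17.2 ± 2.93 CPM (adjusted *P* = 0.264, edgeR). Vwa5a, which shares both domains with AW551984, was at 6.1 ± 1.35 and 5.79 ± 0.513 CPM (adjusted *P* = 0.895, edgeR).

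A list of 11 genes was taken for the NYN or PIN domain, the nuclease fold of Nynrin, although Rpp40, an RNase P subunit in it, lacks that domain. Of the 11, none was called by edgeR or DESeq2, and the median log2 fold change was -0.16. At an unadjusted *P* under 0.05, 2 were lower, against 12.1% of all genes in either direction. The pair were Zc3h12c, a relative of the RNase regnase, at 60.2 ± 6.25 and 47.5 ± 6.26 CPM (adjusted *P* = 0.28, edgeR), and Khnyn, given above.

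The remainder of Nynrin is derived from a retrovirus, and 24 genes derived from transposable elements were examined. They are called retroelement-derived here, although Pgbd5 comes from a DNA transposon. Of these, 17 had a log2 fold change below 0, the median was -0.27, and the morphine libraries were all below the controls for 6, where 3.21% of all genes were. None of the 24 was called by edgeR, 9 were lower at an unadjusted *P* under 0.05 against 5.31% of all genes, and DESeq2 called 6 of the 24 as compared to 3.11% of the genes to which it gave an adjusted *P*. Of those 6, Zcchc12, Pnma3, Peg10, Rgag4 and Pnmal2 were lower in the morphine group and Zcchc5, with 201 counts in all, was higher. Zcchc12 was at 320 ± 61.6 and 187 ± 20.4 CPM (log2 fold change -0.77, SE 0.14, adjusted *P* = 0.0569, edgeR), and Pnma3 was at 49 ± 5.89 and 32.2 ± 3.34 CPM (log2 fold change -0.60, SE 0.12, adjusted *P* = 0.0642, edgeR). Peg10 varied more, at 216 ± 82.4 and 109 ± 39.5 CPM (adjusted *P* = 0.193, edgeR). Zcchc12, Pnma3 and Peg10 are also among the genes closest in profile to the 4, so their values here are the same measurement seen again.

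**Figure D5:**
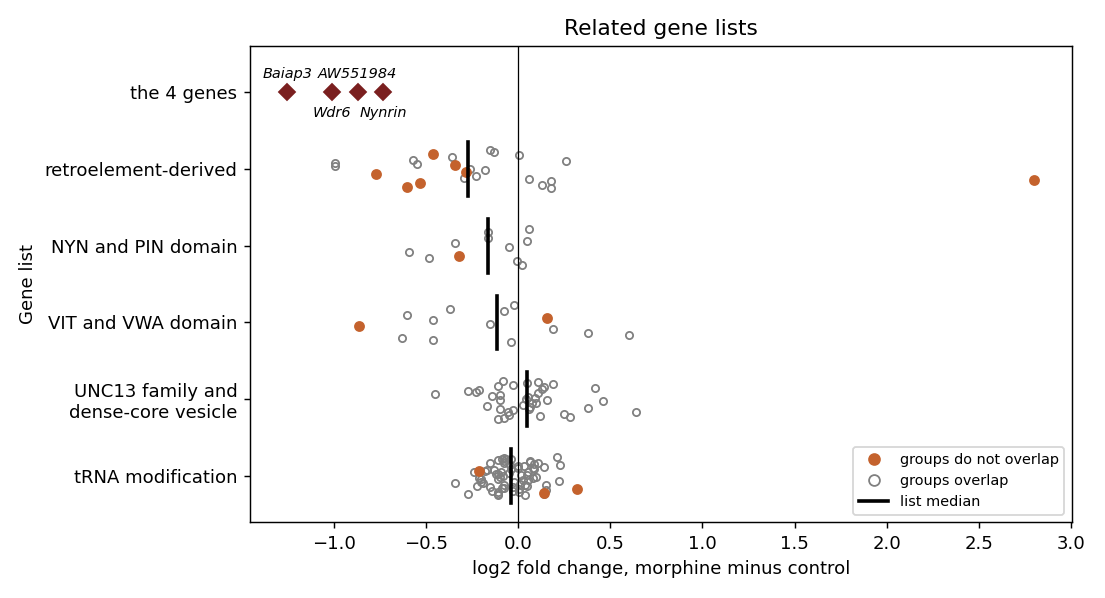
Log2 fold change of morphine minus control for each gene (circle) of 5 related lists and for the 4 genes (diamonds), with the list medians as vertical bars and filled circles where the groups do not overlap. The tRNA modification and dense-core vesicle genes lie around 0 (medians -0.04 and 0.05), and the median of the retroelement-derived genes is -0.27.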

How the data were processed

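TRAP RNA from 8 pools of PVT dissections was sequenced as paired reads of 50 bases. The authors deposited a table of raw read counts for 24488 RefSeq transcripts, and per the labels the build was mm10 (the submitters' processing notes also name DESeq2). The study's methods describe Salmon, an index of mm10 and gene-level import with tximport, but the table holds whole numbers per transcript in which a read shared by transcripts is counted on each, so it is not that output. The tool that made this table and its strand setting are not given in the sources used here. The transcript with the most counts over the 8 libraries stood for its gene, and 0 columns were left without a sample. Condition, sex and replicate came from the labels.

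Counts of 18939 genes were fitted with edgeR 4.0.16 (R 4.3.3, TMM factors, quasi-likelihood test, condition as the only term), with Benjamini-Hochberg adjustment over all genes and a threshold of 0.05. CPM uses TMM library sizes, and log2 CPM a prior count of 2. The test of sex kept condition as a term, and the interaction was tested in a fit with both. Intervals are 95% intervals from the SE and the t quantile of edgeR's degrees of freedom. DESeq2 1.42.0, limma 3.58.1 (voom), other scaling factors, filters, the sum over transcripts, sex or marker scores as terms, and leaving out each library were alternatives. The marker score was the mean log2 CPM of a list. The code was tested on simulated data. Sums of at least 31151106 counts per library, over the 1 transcript kept per gene, left the 4 genes with 657 counts or more in each library. Samples pooled animals, and nothing gives a sequencing batch, so none was compared.

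Spans and lengths came from RefSeq (GRCm38.p6) and GENCODE, and promoters from RefSeq. The 4 genes and the gene lists were chosen with earlier results of these data known, and no list is independent support. Of the neighbouring genes, 1 is not reported here. Genes named were the 4, Oprm1 and the Y-linked genes as checks of the labels, their overlapping and nearest genes, the 3 closest in profile, listed partners or paralogs, and of each list the genes called or else the 2 with the lowest *P* at a mean of at least 1 CPM. The other genes given with values (Rims3, Sim1, Hmx3, Gal, Cartpt and Rax, Vwa3a, Cck, Peg10 and the remaining retroelement-derived genes and the microRNAs) were named after their values were seen. Marker lists not given in the text were medial habenula (7 of 10 above 0, median 0.12), oligodendrocyte (10 of 10 above 0, median 0.56), astrocyte (8 of 10 above 0, median 0.37), microglia (7 of 10 below 0, median -0.095) and inhibitory hypothalamus (6 of 10 below 0, median -0.18), with 0 genes called by edgeR in each.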

Additional observations from a re-analysis of the deposited data

Results flagged for a closer look

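Among 80 groups of 4 libraries, those of the 4 genes and of the genes named with them, 3 had a library far from the other 3 by Dixon's test, which chance alone gives in about 1 of 20. Within the 80, Chgb was at 51.6 CPM in control replicate 2 and at 28.4 to 32 in the other control libraries. Cpe was at 470 CPM in control replicate 2 and at 287 to 316 in the other control libraries. Zc3h12c was at 38.2 CPM in morphine replicate 8 and at 49.5 to 51.7 in the other morphine libraries. None of the 4 genes had such a library in either group.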

How the results depend on the processing

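The sign of the log2 fold changes of the 4 genes is fixed by their choice when a library is left out and is no measure of stability. Their size without single libraries was -1.10 to -0.95 for Wdr6, -1.42 to -1.12 for Baiap3, -0.95 to -0.73 for AW551984 and -0.79 to -0.65 for Nynrin. AW551984 was at -0.55 with the choroid plexus score in the model, and the cause was not tested. That score was higher in every morphine library than in every control library, so it and condition could not be cleanly separated. The number of genes called lower (6) and higher (31) was 176 and 322 with DESeq2, 15 and 95 with sex in the model, 3 and 11 with filterByExpr, 3 and 12 with at least 10 counts in every library, and 3 and 20 with limma-voom. It was 0 and 0 with the choroid plexus score, 1 and 0 with the telencephalic score and 0 and 0 with the hypothalamic score, which was added after seeing the data. The sum over transcripts gave 18 higher. Without single libraries the counts ran from 0 to 13 lower and from 0 to 72 higher. Of the VIT and VWA domain genes DESeq2 called 1, and leaving out libraries gave 0 to 1 (1 without control replicate 5). Of the retroelement-derived genes DESeq2 called 6, the model with sex called 2, and leaving out libraries gave 0 to 1 (1 without control replicate 2). The tRNA modification, dense-core vesicle and NYN or PIN domain lists and the neighbours stayed at 0 called under every setting. The calls within the marker lists were not followed across these settings.

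The female minus male difference ran from -0.081 to 0.11 for Wdr6, -0.12 to 0.23 for Baiap3, -0.14 to 0.13 for AW551984 and -0.054 to 0.10 for Nynrin when a library was left out, with both signs for each, and none was called. The interaction ran from -0.31 to 0.20 for Wdr6, 0.044 to 0.69 for Baiap3, -0.16 to 0.52 for AW551984 and 0.051 to 0.39 for Nynrin. With total counts as the scaling, the sex difference of Wdr6 was -0.0054 and its interaction 0.0011. No paired analysis was possible because the control and morphine groups share no replicate number. With 4 pools per group, 2 per sex, the intervals of the interaction are wide, and a difference between the sexes within them was not detectable at this depth of replication.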
